A study of Mus musculus with 18 samples.

Results

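The 44 genes described here are interferon receptors and genes that interferons induce, among them *Ifit1* and *Ifit3*, which mark the program. They were followed in mesangial cells, podocytes and endothelial cells sorted from mouse glomeruli, the filtering units of the kidney. The genes were matched by symbol to a table of 28856 transcript clusters, of which 25254 carried a gene symbol, and every one of the 44 was found. A transcript cluster is the array's set of probes for a gene. Where a gene had several, the cluster of greatest average signal across all 18 arrays was used. *Parp9* and *Dtx3l* shared their clusters and count as 1 measurement, so the 44 genes gave 43 transcript clusters.

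Cells that detect viral nucleic acid or other danger signals secrete interferons. Type I interferons bind the receptor formed by *Ifnar1* and *Ifnar2*, and interferon gamma binds the receptor formed by *Ifngr1* and *Ifngr2*. Janus kinases at the receptor then phosphorylate STAT proteins. For type I interferon, Stat2 joins Irf9 in a complex that binds the interferon-stimulated response element (ISRE) in promoters and switches on a set of antiviral genes, many of which also feed back on the sensors and transducers of the pathway. Glomeruli are known to show this program in lupus nephritis.

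Arrays were Affymetrix Mouse Gene 1.0 ST, 3 for each of 6 groups, from mice 5 weeks old. Mutant mice were *Cd2ap*-/- (the B6.129X1-*Cd2ap* tm1Shaw/J strain), which lack an adaptor protein that links nephrin to the podocyte cytoskeleton and which serve as a model of focal segmental glomerulosclerosis. The compared question was how each glomerular cell type differs between mutant and control mice. Every mouse, mutant or control, carried a GFP reporter of 1 cell type, Meis1-GFP for mesangial cells, Tie2-GFP for endothelial cells or a podocyte reporter. GFP-positive cells were sorted by FACS from sieved and dissociated glomeruli, and their RNA was amplified before hybridisation. Records name the controls wild type for genotype in all cell types, but the column names of the mesangial controls carry 1 plus and 1 minus sign where those of the other controls carry a pair of plus signs, so the mesangial controls are called control here. The mutant lacks Cd2ap in all its cells. In bulk arrays of this kind, fewer cells of a type and less RNA per cell cannot be told apart. The study calls the 3 arrays of a group biological triplicates, and they are named A, B and C here in column order, which pairs nothing across groups.

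Promoters of the 3 genes with the largest endothelial change are shown first, because many of these genes carry the ISRE next to their start. The sequences are the 250 bases before the start of transcription in RefSeq (build GRCm38.p6), written 5′ to 3′ on the gene's strand, with matches to the ISRE core in capitals. The core searched was GAAANNGAAA on either strand, so a match on the other strand reads as its reverse complement. *Ifit1* lies on the + strand and the window is chr19:34640639-34640888. *Ifit3* lies on the + strand with the window chr19:34583279-34583528. *I830012O16Rik*, which RefSeq names *Ifit3b*, lies on the + strand with the window chr19:34607707-34607956.
Ifit1: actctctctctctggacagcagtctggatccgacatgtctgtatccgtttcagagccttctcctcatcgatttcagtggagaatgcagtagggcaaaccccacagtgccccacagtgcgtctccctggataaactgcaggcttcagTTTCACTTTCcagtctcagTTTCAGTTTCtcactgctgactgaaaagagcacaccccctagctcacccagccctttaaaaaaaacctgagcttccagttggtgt
Ifit3: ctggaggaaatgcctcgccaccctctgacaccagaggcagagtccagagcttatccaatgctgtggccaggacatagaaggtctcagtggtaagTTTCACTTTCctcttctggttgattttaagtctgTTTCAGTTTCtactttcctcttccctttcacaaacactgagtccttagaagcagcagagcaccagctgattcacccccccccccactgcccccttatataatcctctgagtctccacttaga
Ifit3b: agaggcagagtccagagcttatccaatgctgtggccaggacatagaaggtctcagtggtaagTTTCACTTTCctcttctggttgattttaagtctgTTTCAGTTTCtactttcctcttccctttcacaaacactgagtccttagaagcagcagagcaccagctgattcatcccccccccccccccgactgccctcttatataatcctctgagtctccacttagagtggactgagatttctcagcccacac
Each of the 3 windows held 2 matches. The *Ifit3* and *Ifit3b* windows shared a run of 169 identical bases that includes both of their matches. Shorter stretches are shown for *Isg15* and *Rsad2*, 2 further genes that rose, and for the transducer *Stat2*. The *Isg15* site (chr4:156200871-156200900, - strand) overlaps 2 further matches in that promoter, the *Rsad2* site is chr12:26456553-26456582 (- strand) and the *Stat2* site is chr10:128270266-128270295 (+ strand).
Isg15: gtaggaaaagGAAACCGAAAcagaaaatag
Rsad2: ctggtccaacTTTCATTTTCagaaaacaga
Stat2: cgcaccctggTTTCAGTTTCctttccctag
Of the 44 genes, 35 were matched to the promoter table by symbol or synonym, and 10 of these 35 (28.6%) held at least 1 ISRE match in a window, *Stat2*, *Isg15*, *Ifit1*, *Ifit3*, *I830012O16Rik*, *Oas1a*, *Oas3*, *Rsad2*, *Bst2* and *Ifitm2*. Among all 27025 genes listed there, 3.46% did, and among all 32851 promoter windows 2.98% did. The interferon gamma activated site core TTCNNNGAA, which reads the same on both strands, was found in 5 of the 35 genes (14.3%) and in 8.13% of all genes. A match says only that these letters are in the window. *Oas2*, *Mx1*, *Mx2*, *Usp18*, *Dhx58*, *Rtp4*, *Parp9*, *Parp14* and *Zbp1* were not in the promoter table.

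Several arrays stood apart before any comparison. The *Cd2ap* cluster itself did not drop in the arrays labelled mutant in a way that passed the test. Its log2 difference was -0.31 ± 0.10 (SE) in mesangial, -0.23 ± 0.15 in podocyte and 0.18 ± 0.09 in endothelial arrays, with limma adjusted p of 0.151, 0.504 and 0.336, so each direction below rests on the labels. Labelled cell types held their own markers: the podocyte phosphatase gene *Ptpro* read 2903, 2249 and 2435 in wild type podocytes and the endothelial gene *Kdr* read 2308, 2432 and 2301 in wild type endothelial arrays. The 8 markers listed for mesangial cells summed to between 11120 and 12061 in control mesangial arrays. In mutant mesangial arrays they were lower without overlap, between 8185 and 8857. Control mesangial array C also carried other cells' markers, with *Ptpro* at 293, *Kdr* at 935 and the globin gene *Hbb-b1* at 4956, and mutant mesangial array B carried the myeloid gene *Tyrobp* at 1261 against 168 and 159 in the other mutant mesangial arrays. Mutant podocyte arrays differed most among themselves, with correlations of log2 signal between 0.967 and 0.971 against at least 0.980 in every other group.

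Endothelial arrays carried the large change. Of the 43 transcript clusters 40 reached a signal of 100 in at least 1 of the 6 endothelial arrays and were tested. A screen at the study's thresholds (p under 0.05 in a moderated test and a fold change over 1.5) was run in limma. The fit and the rule of 1 array at the minimum were chosen here, so the counts are not the study's. Of the members 31 were higher and 0 lower in the mutant endothelial arrays. Of all 11330 tested clusters the screen called 2.96% higher and 0.865% lower. With Benjamini-Hochberg adjustment over all tested clusters, 27 of the 31 had an adjusted p under 0.05, against 1.21% of all tested clusters called higher at that threshold. At an unadjusted p under 0.05 there were 35 members, none of them lower, against 18.5% of all tested clusters. Of the 40, 5 (*Dhx58*, *Zbp1*, *Oas2*, *Mx2* and *Cmpk2*) reached the signal minimum in mutant arrays alone. They passed through the group where they were high, so their calls support nothing and their signals are given as values. Of the other 35, 26 were called, 23 of them at an adjusted p under 0.05. All 43 clusters were also read without the minimum. In 37 of the 43, every mutant endothelial array lay above every wild type endothelial array, while 8.34% of all 28856 clusters did so. The median log2 difference of the 43 was 0.85, and that of all clusters was -0.03.

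**Figure D1:**
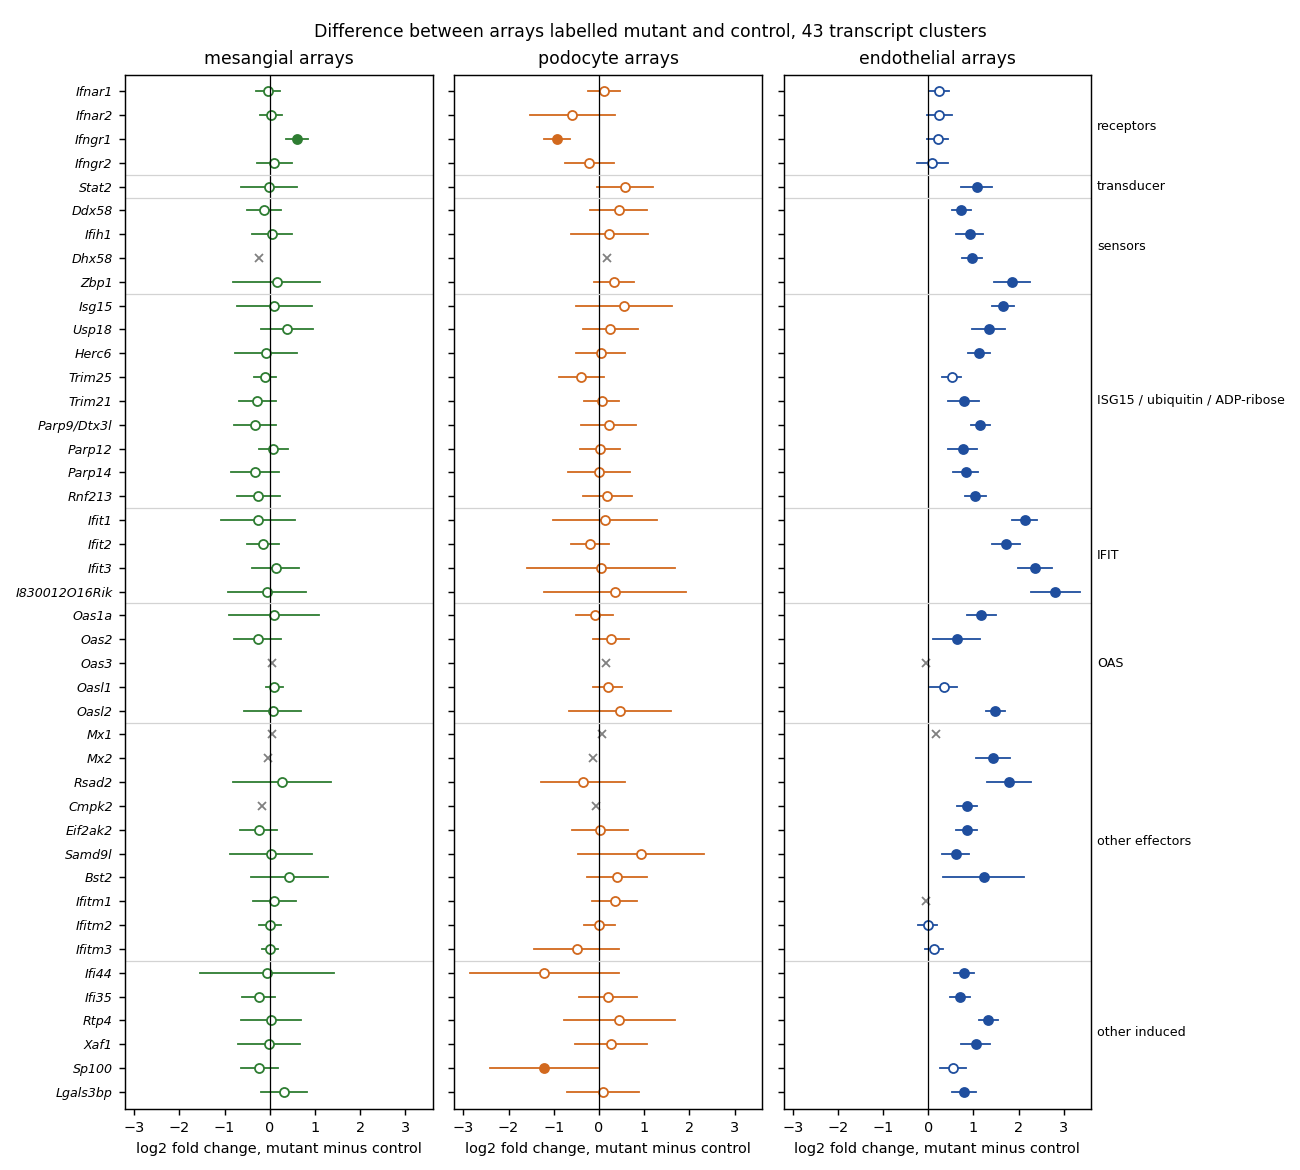
Log2 fold change of mutant minus control arrays for the 43 transcript clusters, grouped by role, in mesangial (left), podocyte (middle) and endothelial arrays (right). Points are limma estimates with 95% intervals from 3 against 3 arrays, filled where the screen called the gene, and grey crosses are clusters below the signal minimum, drawn without an interval; 31 endothelial points are filled, 5 of them tested through mutant arrays alone, against 1 mesangial and 2 podocyte points.

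The IFIT family, proteins with tetratricopeptide repeats that bind viral RNA and block its translation, gave the 3 largest fitted differences of all members. All 4 genes of the family rose in the mutant endothelial arrays. *I830012O16Rik*, a near copy of *Ifit3*, read 62.7, 108 and 70.9 in the wild type arrays and 640.5, 421 and 614 in the mutant arrays. The mutant arrays lay far above the wild type arrays with no overlap (adjusted p = 0.00211, limma), and since 2 of the 3 wild type signals were under the minimum of 100, no fold is given. *Ifit3* read 313, 434 and 345 in wild type and 1957, 1536 and 2119 in mutant arrays. Every mutant value was more than 3 times the highest wild type value, and the log2 fold change was 2.36 ± 0.16 (SE, adjusted p = 0.00112). Probes for these near copies can pick up each other's transcripts, so the gain of either is uncertain as a gain of that gene alone. *Ifit1* read 109, 86.4 and 105 in wild type and 467, 407 and 434 in mutant arrays. The groups again stood apart, by 2.13 ± 0.12 on the log2 scale (adjusted p = 0.000536). Wild type array B was under the minimum of 100, so the size of the *Ifit1* difference is uncertain. *Ifit2* read 222, 179 and 169 in wild type and 639.8, 677 and 557 in mutant arrays, a separation of 1.72 ± 0.13 (adjusted p = 0.00173). The promoters printed above with paired ISRE matches belong to 3 of these 4 genes, and neither *Ifit2* window held a match.

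**Figure D2:**
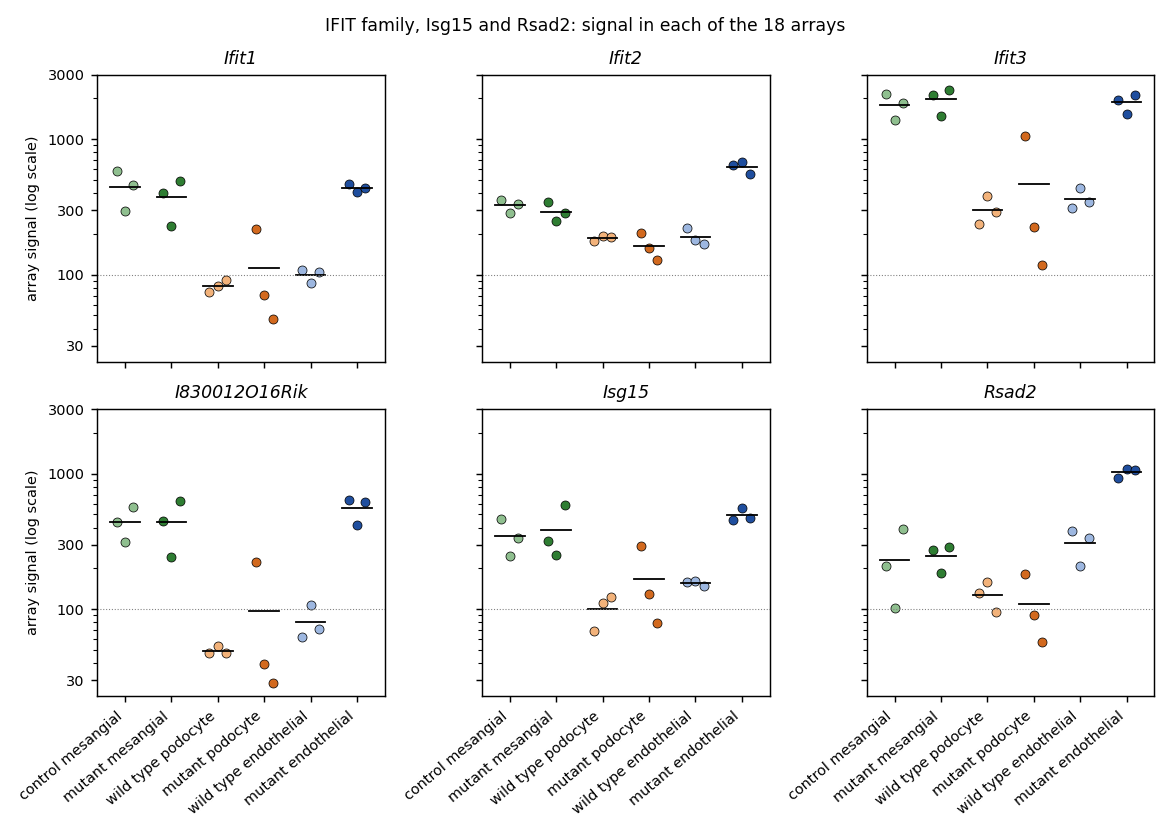
Array signal, on a log axis, of the 4 IFIT genes, *Isg15* and *Rsad2* in each of the 18 arrays, by group. Points are arrays A, B and C from left to right, bars are group means and the dotted line is the signal minimum of 100; mutant endothelial points lie above all wild type endothelial points in each panel, with *Ifit3* at 1536 to 2119 against 313 to 434.

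The ISG15 system and the ubiquitin and ADP-ribose enzymes followed, with 8 of 9 clusters called higher and 7 of them at an adjusted p under 0.05. *Isg15*, a ubiquitin-like protein that is attached to viral and host proteins, read 160.0, 163 and 147 in wild type and 458, 558 and 471 in mutant endothelial arrays. The lowest mutant value was over 2 times the highest wild type value, and the log2 fold change was 1.66 ± 0.11 (adjusted p = 0.000973). *Usp18*, the protease that removes Isg15 and dampens receptor signalling, rose from a mean of 108 ± 10.3 (SD, n = 3) to 277 ± 60.05, a log2 fold change of 1.34 ± 0.16. *Herc6*, the mouse ligase for Isg15, rose by 1.11 ± 0.10, and the *Parp9* and *Dtx3l* cluster, a pair that ADP-ribosylates and ubiquitinates chromatin proteins, rose by 1.15 ± 0.09. *Parp14* and *Parp12* rose by 0.83 ± 0.12 and 0.76 ± 0.14. The large ubiquitin ligase *Rnf213* rose by 1.05 ± 0.10, and of its 15 clusters 12 of the 14 that were tested were called higher. Clusters with averages of only 83.4 and 63.0 over the 18 arrays, under the minimum, were among the 12. How many of the 12 were tested through mutant arrays alone was not counted, so the count adds no support. *Trim21*, a cytosolic antibody receptor and ubiquitin ligase, was called at an adjusted p of 0.0524 with a log2 fold change of 0.78 ± 0.15. *Trim25*, the ligase that activates the sensor RIG-I, differed by 0.51 ± 0.09 and fell short of the fold of 1.5, although all 3 mutant arrays exceeded the wild type ones.

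Of the 4 nucleic acid sensors, the RNA sensors *Ifih1* (MDA5) and *Ddx58* (RIG-I) were well above the minimum in both groups and rose by 0.92 ± 0.13 and 0.73 ± 0.09, each at an adjusted p under 0.05. The other 2 reached the minimum in mutant arrays alone. *Zbp1*, a sensor of Z-form nucleic acid that can start necroptosis, read 68.5, 62.9 and 68.4 in wild type and 252, 299 and 181 in mutant endothelial arrays, without overlap. *Dhx58* (LGP2), the regulator of the RNA sensors, read between 50.2 and 52.5 in wild type and between 94.7 and 111 in mutant arrays. *Stat2*, the transducer of the type I receptor, read 217, 163 and 202 in wild type and 428, 451 and 344 in mutant endothelial arrays. Its groups stood apart with a log2 fold change of 1.07 ± 0.15, or 2.1-fold (adjusted p = 0.0149, limma).

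Among the 2′-5′ oligoadenylate synthetases, which make the second messenger that activates RNase L, *Oasl2*, *Oas1a* and *Oas2* were called of the 4 tested, *Oas2* through mutant arrays alone. *Oasl2* read 195, 198 and 218 in wild type and 593, 582 and 536 in mutant endothelial arrays. The groups did not overlap, and the log2 fold change was 1.49 ± 0.09 (adjusted p = 0.000973). *Oas1a* rose by 1.17 ± 0.14, in both of its clusters. *Oas2* read 75, 74.2 and 77.9 against 173, 88.9 and 104, and array A of the mutants stood far above B and C. The screen's call was lost without mutant endothelial array A, wild type array A or wild type array B. *Oasl1* differed by 0.34 ± 0.13 without a call, and *Oas3* stayed below the minimum in all endothelial arrays.

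The other antiviral effectors divided. Of 10, 8 were tested and 6 called higher, *Cmpk2* and *Mx2* through mutant arrays alone. *Rsad2* (viperin), which makes a chain-terminating nucleotide, read 378, 208 and 334 in wild type and 932, 1086 and 1073 in mutant endothelial arrays. The groups did not overlap and differed by 1.79 ± 0.21 (adjusted p = 0.00834). Its genomic neighbour and functional partner *Cmpk2*, a nucleotide kinase, read 54.5, 56.9 and 53.8 and 109.7, 93.1 and 98.7. *Mx2*, a dynamin-like GTPase, read 71.3, 60.9 and 70.1 in wild type and 232, 169.8 and 151 in mutant arrays without overlap, whereas its relative *Mx1* read 26.7, 27.2 and 27.7 and 32.1, 29.1 and 31.3, below the minimum in every array. *Eif2ak2* (PKR), the kinase that halts translation on sensing double-stranded RNA, rose by 0.85 ± 0.10. *Samd9l* was called with 0.60 ± 0.13 at an adjusted p of 0.0682, and its fold was under 1.5 without mutant endothelial array B (log2 0.56), mutant array C (0.55) or wild type array A (0.51). *Bst2* (tetherin), which holds budding virions at the membrane, read 104, 245 and 119 in wild type and 436, 441 and 201 in mutant arrays. Wild type array B lay above mutant array C, so the groups overlapped, the adjusted p was 0.18, and the screen's call was lost without mutant array A (log2 1.04), wild type array A (0.99) or wild type array C (1.08). The interferon-induced transmembrane genes, which block virus entry, were not called. *Ifitm2* read 1461, 1434 and 1409 and 1411, 1329 and 1521, a difference of -0.02 ± 0.09 with a 95% interval of -0.22 to 0.19. *Ifitm3* differed by 0.12 ± 0.09 with an interval of -0.08 to 0.32, and *Ifitm1* was below the minimum.

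Of 6 other induced genes 5 were called, all at an adjusted p under 0.05. *Rtp4*, a chaperone of receptors that also restricts viruses, had the largest change of them at 1.33 ± 0.09, from 430.0 ± 7.36 to 1082 ± 80.7 (SD, n = 3). *Xaf1*, an inhibitor of the apoptosis blocker Xiap, rose by 1.05 ± 0.14. *Lgals3bp*, *Ifi44* and *Ifi35* rose by 0.80 ± 0.12, 0.79 ± 0.10 and 0.70 ± 0.09. *Sp100*, a component of nuclear bodies, differed by 0.55 ± 0.12 in non-overlapping arrays and missed the fold of 1.5.

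The receptors themselves were not called in endothelial arrays. *Ifnar1* read 302, 278 and 266 in wild type and 318, 325 and 357 in mutant endothelial arrays. The mutant arrays lay just above, by 0.24 ± 0.10 on the log2 scale (adjusted p = 0.239). *Ifnar2* read 1041, 851 and 805 and 1096, 980.3 and 1094, which overlapped. *Ifngr1* read 305, 302 and 325 and 402, 334 and 345, without overlap and with a difference of 0.21 ± 0.10 (adjusted p = 0.31). *Ifngr2* read 316, 250.0 and 262 and 265, 266 and 356.4, which overlapped. The 95% intervals of the 4 log2 differences ran from 0.02 to 0.46 for *Ifnar1*, -0.03 to 0.52 for *Ifnar2*, -0.02 to 0.45 for *Ifngr1* and -0.25 to 0.44 for *Ifngr2*.

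The pathway's other genes were read from a list of 35, of which 32 were on the array and 17 were tested in endothelial arrays. The screen called 3 of the 17 higher and 0 lower, against the 2.96% and 0.865% of all tested clusters, and all 3 are factors that act on the promoters. *Irf7*, the amplifier of type I interferon transcription, read 88.3, 84.2 and 82.1 in wild type and 522, 440.4 and 480.1 in mutant endothelial arrays. No array of the groups overlapped, but all 3 wild type signals were under the minimum of 100, so the gene was tested through the mutant arrays alone and its call supports nothing. *Irf9*, the partner of Stat2 at the ISRE, rose by 0.80 ± 0.11 with an adjusted p of 0.015. *Irf1* was called at 0.60 ± 0.14 with an adjusted p of 0.0923. *Tlr3*, an endosomal sensor of double-stranded RNA, differed by 0.48 ± 0.09 (adjusted p = 0.0496) below the fold of 1.5. Of the ligands, *Ifnb1* read between 27.3 and 29.4 in the mutant endothelial arrays and between 27.6 and 29.0 in the wild type ones, and *Ifng* stayed between 59.0 and 63.2 in all 6, under the minimum. *Ifna5*, the ligand of the list with the highest signal here, read 118, 113 and 113 in wild type and 83.7, 89.5 and 102 in mutant endothelial arrays, and it was not called.

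Some myeloid marker signal moved with the endothelial change. The 11 monocyte and macrophage markers summed to 735, 880.3 and 939.7 in wild type and 1738, 1184 and 884 in mutant endothelial arrays, in the order A, B and C. *Tyrobp* read 108, 179 and 201 against 475, 274 and 151, and the common leukocyte gene *Ptprc* 74.8, 97.7 and 69.5 against 168, 101 and 76.3. The mean log2 signal of the 43 clusters ran in the same order of mutant arrays, at 8.76, 8.71 and 8.62. Array C was the lowest of its group in 22 of the 43, a count for which the share of all clusters was not taken. Mutant array C was within the wild type range for these 3 marker values, and its mean over the 43 clusters lay above the 7.74 to 7.77 of the wild type arrays. The 2 orders also matched in control mesangial and wild type podocyte arrays, but not in wild type endothelial, mutant mesangial or mutant podocyte arrays. Wild type endothelial means over the 43 clusters were 7.75, 7.77 and 7.74 in the order A, B and C. Mutant mesangial array B had the highest myeloid sum of its group, 2771 against 1089 and 1400. Its mean over the 43 clusters was the lowest, 7.89 against 8.16 and 8.45. The part of myeloid cells in the differences among the arrays was not tested. The 9 lymphocyte markers were each under 100 in every array. Without the member *Bst2*, the 3 markers listed for plasmacytoid dendritic cells summed to 828, 767 and 874 in wild type and 1234, 876 and 1015 in mutant endothelial arrays, so every mutant array was above. Most of that sum was *Tcf4*, a transcription factor that other cells express too, with 739, 674 and 779.9 against 1138, 785 and 925. *Siglech* read 53.6, 49.9 and 56.2 and 56.6, 54.5 and 50.5, and *Ccr9* too was under 100 in all 6. The 8 endothelial markers summed to between 15036 and 16790 in wild type and between 16673 and 17498 in mutant arrays.

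**Figure D3:**
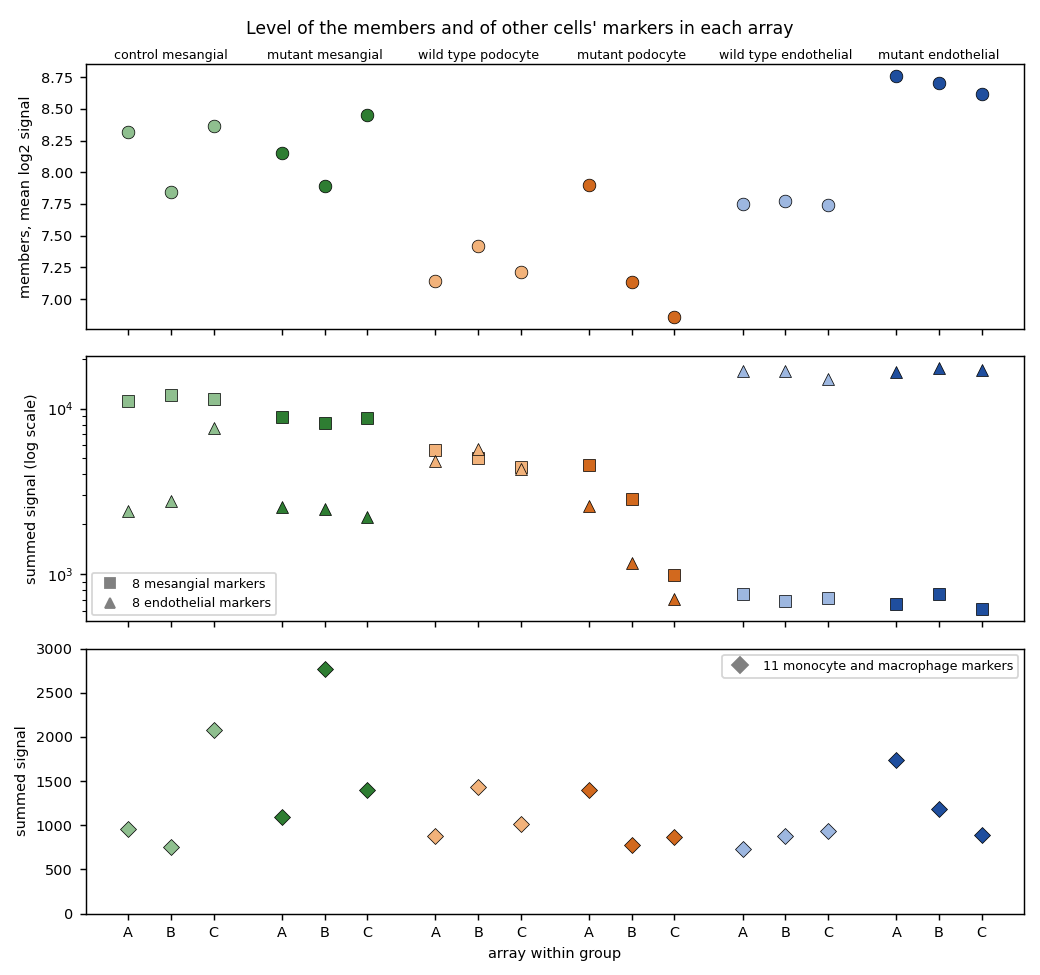
Mean log2 signal of the 43 transcript clusters in each array (top), summed signal of 8 mesangial and 8 endothelial markers on a log axis (middle) and summed signal of 11 monocyte and macrophage markers (bottom), by group. Mutant endothelial arrays stood at 8.62 to 8.76 against 7.74 to 7.77 in wild type, and the 3 mutant podocyte arrays ran from 7.90 to 6.86 in the same order as their mesangial and endothelial marker sums.

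Podocyte arrays gave no such shift. Of 38 tested clusters 0 were called higher and 2 lower in the mutant arrays, where the screen called 1.26% of all 12113 tested clusters higher and 4.34% lower. None of the 38 had an adjusted p under 0.05 in limma. The 2 with an unadjusted p under 0.05 were the 2 called lower. The median log2 difference of the 43 clusters was 0.11, against 0.03 over all clusters. With 1 array left out the median of the 43 ran from -0.14 to 0.23. The lower genes were *Ifngr1* and *Sp100*. *Ifngr1* read 846, 797 and 908 in wild type and 411, 473 and 448 in mutant podocyte arrays. Every mutant array was below every wild type array, by 1.92-fold (log2 fold change -0.94 ± 0.12, adjusted p = 0.1, limma). *Sp100* read 334, 507 and 248 in wild type and 325, 140.1 and 73.4 in mutant arrays. Mutant array A lay inside the wild type range, and the log2 fold change of -1.22 ± 0.51 had an adjusted p of 0.339. It was -0.71 without mutant podocyte array C and -0.48 as the mean over the clusters of the gene, and neither was called.

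The mutant podocyte arrays disagreed over the interferon-induced genes. Array A was the highest of its group in 36 of 43 clusters and array C the lowest in 30. The shares of all clusters were not counted, and these arrays also differed most among themselves over all clusters. The counts are therefore not shown to be particular to the members. *Ifit3* read 235, 380.0 and 288 in wild type and 1053, 224 and 117 in mutant podocyte arrays. Mutant array A was above, and arrays B and C below, every wild type array. *Ifit1* showed the same with 74.5, 82.4 and 91.3 against 217, 71.2 and 47.2. *Stat2* read 143, 154 and 147 in wild type and 343, 193 and 161 in mutant arrays. Here all 3 mutant arrays were above the wild type ones, and the log2 difference of 0.57 ± 0.26 did not pass the test (adjusted p = 0.373). Without mutant podocyte array A the screen called 8 clusters lower, *Ifit3*, *Rsad2*, *Ifi44*, *Trim25*, *Sp100*, *Ifitm3*, *Ifnar2* and *Ifngr1*, where 8.61% of all tested clusters were lower. Without mutant array C it called 5 higher, against 1.91% of all tested clusters, and 1 lower. With all arrays, 7 of the 38 tested clusters reached the minimum in mutant podocyte arrays alone. Whether the 5 include such clusters was not checked, so their count supports nothing. Without mutant array B, wild type array A or wild type array B it called 1 lower, and in these 4 settings the call of *Sp100* was lost. Podocyte arrays also carried signal of markers listed for other cells. The 8 mesangial markers summed to 5655, 5003 and 4435 in wild type and 4551, 2849 and 984 in mutant podocyte arrays, and the 8 endothelial markers to 4832, 5736 and 4307 and 2565, 1166 and 709.7. The mutant arrays thus ran in the order A, B and C for both marker sums and for the mean level of the 43 clusters. In wild type podocyte arrays that mean level was 7.14, 7.42 and 7.21, an order that neither marker sum followed. Each was below the 7.90 of mutant array A. Mutant array A was also the highest of its group for 4 erythroid markers, which summed to 5405, 719.6 and 232. The same held for the 11 monocyte and macrophage markers, at 1402, 779 and 871. In wild type podocyte arrays these read 3989, 2987 and 3963 and 879, 1432 and 1008. Their part in these differences was not tested. Of the other pathway genes 0 of 17 tested were called in podocytes, and 0 had an adjusted p under 0.05 in limma. Unadjusted, 1 had a p under 0.05, and without the share of all tested clusters nothing is read from this count.

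In mesangial arrays a single member was called by genotype. Of 38 tested clusters 1 was called higher and 0 lower, where the screen called 2.08% of all 11457 tested clusters higher and 3.12% lower. That is near the share of all clusters and is no result about the members as a group. The controls here may carry a mutant allele. The same 1 had an adjusted p under 0.05, as 1.25% of all tested clusters did in that direction. No other member had an unadjusted p under 0.05. The median log2 difference of the 43 was -0.01, against 0.01 over all clusters. With 1 array left out the median of the 43 ran from -0.22 to 0.10. The called gene was *Ifngr1*, with 498, 513 and 558 in control and 870.3, 812 and 704 in mutant mesangial arrays. Every mutant array was above every control array, with a log2 fold change of 0.60 ± 0.11 or 1.52-fold (adjusted p = 0.0404, limma). This is close to the fold of 1.5, and the log2 value was 0.53, 0.58 and 0.57, under that fold, without mutant array A, mutant array B and control array A. No call was made for the other receptors, *Ifnar1* with 227, 271 and 292 against 243, 259 and 261, and *Ifnar2* with 1095, 1139.6 and 978 against 1049, 1033 and 1207. *Ifngr2* read 434, 359 and 377.1 against 376, 361 and 532. All 3 overlapped. The induced genes spread as widely within the groups as between them. *Ifit1* read 584, 293 and 459 in control and 399, 229.7 and 492 in mutant mesangial arrays, and its 95% interval ran from -1.08 to 0.55. *Ifit3* read 2169.6, 1389 and 1842 and 2101, 1489 and 2319, and *Stat2* 315, 203 and 351 and 271, 215 and 368.9. In both groups array B was the lowest in most clusters, 37 of 43 in control and 35 of 43 in mutant. The shares of all clusters were not counted, so these counts are not shown to be particular to the members. Without control array C and mutant array B together, the arrays that carried other cells' markers, the screen called 3 members higher, *Ifngr1*, *Rsad2* and *Usp18*, against 2.20% of all tested clusters. Of the 15 *Rnf213* clusters 1 was called lower, and the cluster used here was not. Of the other pathway genes 0 of 18 tested were called in mesangial arrays, and 0 had an adjusted p under 0.05 in limma. Unadjusted, 3 had a p under 0.05. The share of all tested clusters at that threshold is not given, so nothing is read from this count.

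Cell types differed in the program among the control arrays. The mesangial controls may carry a mutant allele, since their column names hold 1 minus sign, so cell type and *Cd2ap* genotype cannot be told apart in comparisons with them. In the control arrays alone, the mesangial group had the highest mean of the 3 cell types in 32 of 43 clusters and the podocyte group the lowest in 36. The shares of all clusters in this order were not counted, so nothing particular to the members is read from it. Calls here needed an adjusted p under 0.05 and a fold over 1.5 in a limma fit of the 9 control arrays. Podocyte arrays were lower than mesangial arrays in 25 of 38 tested members and higher in 2, against 9.24% and 5.90% of all 12537 tested clusters. In 5 of the 25 (*Usp18*, *Parp9*, *Ifit1*, *I830012O16Rik* and *Oas1a*) every wild type podocyte signal was under the minimum of 100, so these passed only through groups where they were higher and support nothing, which leaves 20. Endothelial arrays were lower than mesangial arrays in 13 and higher in 0, against 9.58% and 7.91% of all tested clusters. Podocyte arrays were lower than endothelial arrays in 17 and higher in 2, against 11.6% and 9.83%. The lower group was under the minimum in every array for *Parp9*, *I830012O16Rik* and *Oas1a* among the 17 and for *Ifitm1* among the 2, which leaves 14 and 1. Without control mesangial array C, *Rsad2* and *Ifi44* were called higher in endothelial than in mesangial arrays.

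*Ifit3*, *I830012O16Rik* and *Ifit1* spread widely between the cell types. *Ifit3* read 2169.6, 1389 and 1842 in control mesangial arrays, 235, 380.0 and 288 in wild type podocytes and 313, 434 and 345 in wild type endothelial arrays. Mesangial signals exceeded those of both other types without overlap, by 6-fold over podocytes and 4.91-fold over endothelial arrays (adjusted p = 2.99e-05 and 3.74e-05). *I830012O16Rik* and *Ifit1* were also called lower in podocyte than in mesangial arrays, where every wild type podocyte signal of both was under the minimum of 100. *Ifit2*, of the same family, differed by -0.80 ± 0.13 on the log2 scale. Mutant endothelial arrays read 1957, 1536 and 2119 for *Ifit3*, within the mesangial range of 1389 to 2319 over both genotypes. For *Ifit2* and *Rsad2* the mutant endothelial arrays lay above all mesangial arrays, as the plot of array signals shows. Over the 43 clusters the mutant endothelial group had the highest mean of the 6 groups in 31, a count for which the share of all clusters was not taken.

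Some members broke the order. *Ifitm1* read 270.4, 335 and 438 in wild type podocytes, 95, 86.5 and 123 in control mesangial and 80.9, 83.7 and 93.3 in wild type endothelial arrays. Podocytes did not overlap with either and were called higher than mesangial arrays (adjusted p = 9.77e-05, limma). The endothelial signals were all under the minimum of 100, so the call against them supports nothing and the signals are given as values. Of the 3 mesangial signals 2 were under the minimum too, so no fold is given. *Ifi44* read 1011, 1198 and 1139.7 in wild type endothelial arrays, 616, 169 and 965 in control mesangial and 146, 451 and 263 in wild type podocyte arrays. Endothelial signals were above all others, and the difference of 1.26 ± 0.58 from the widely spread mesangial arrays was not called (adjusted p = 0.131). *Ifitm2* and *Ifitm3* were among the members with no call in any pair of cell types, with signals over 1400 in every control array.

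**Figure D4:**
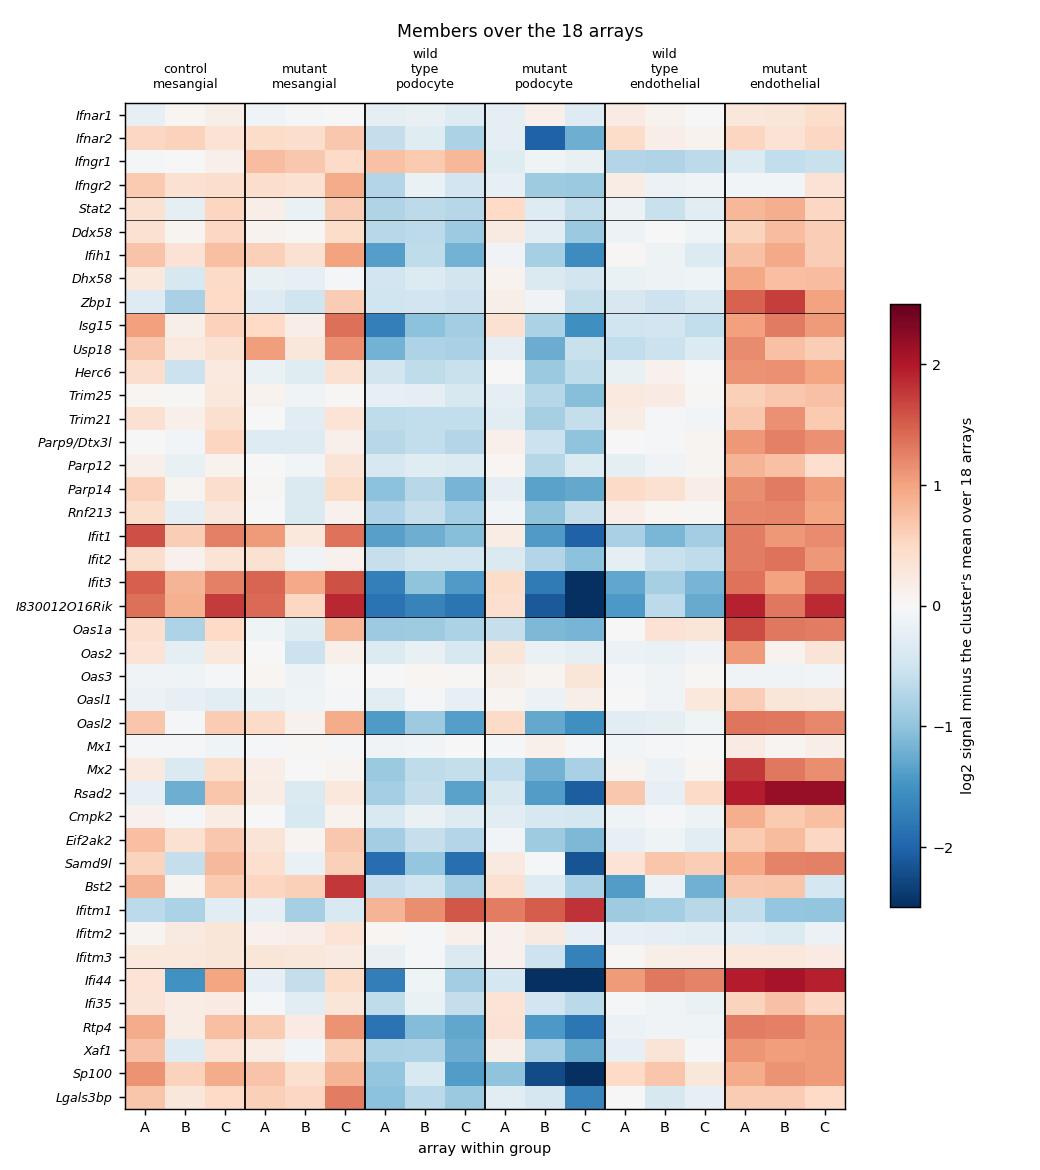
Log2 signal of each transcript cluster minus its mean over the 18 arrays, with members in rows by role and arrays in columns by group; the colour scale ends at the values printed on its bar. The mutant endothelial columns are red in most rows, array B is the lowest mesangial column in most rows, and the wild type podocyte columns are blue in most rows except *Ifngr1* and *Ifitm1*.

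Receptor levels followed their own patterns in the 6 groups. *Ifnar1* differed least, with group means from 221 ± 11 (SD, n = 3) in wild type podocytes to 333 ± 20.9 in mutant endothelial arrays, and all neighbours in the order overlapped except mutant and wild type endothelial arrays. *Ifnar2* was about as high in mesangial as in endothelial arrays and lower in podocytes, where wild type arrays averaged 519 ± 88.1. Podocytes differed from mesangial controls by -1.06 ± 0.14 and from wild type endothelial arrays by -0.80 ± 0.14 on the log2 scale, both called. *Ifngr1* was highest in wild type podocytes at 850.4 ± 55.3, then mutant mesangial arrays at 796 ± 84.1, with which it overlapped. Control mesangial arrays at 523 ± 31.3, mutant podocytes at 444 ± 31.6, mutant endothelial arrays at 360.4 ± 36.6 and wild type endothelial arrays at 311 ± 12.6 followed with no overlap between neighbours. *Ifngr2* was highest in mesangial arrays and lowest in podocytes, which differed from mesangial controls by -0.95 ± 0.16 (adjusted p = 0.00161).

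**Figure D5:**
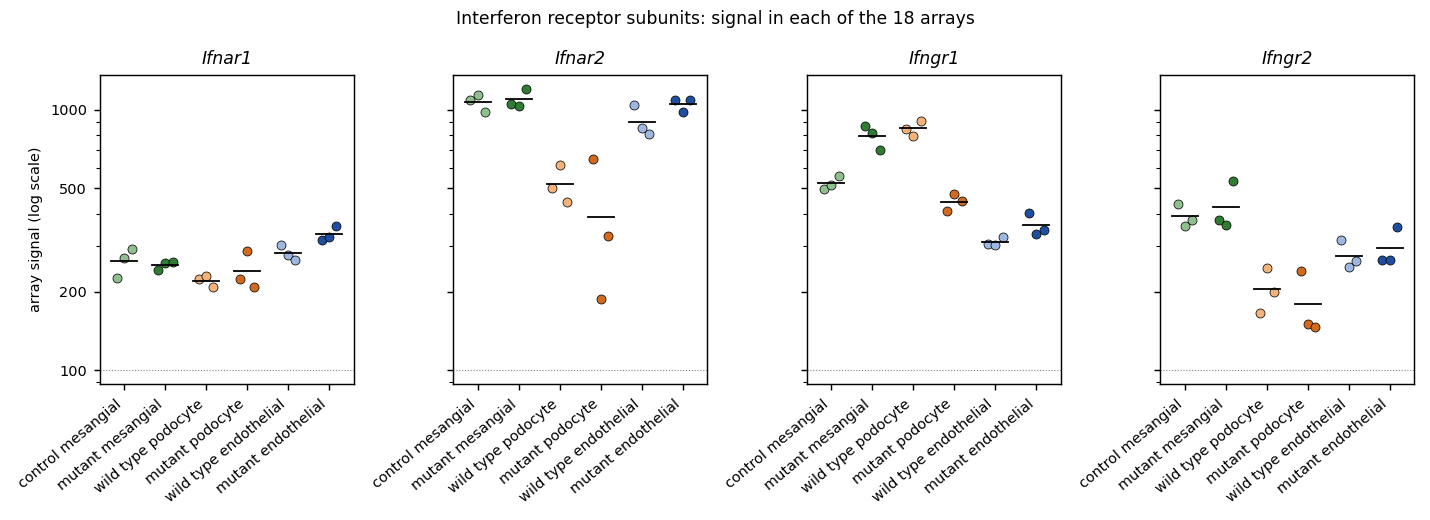
Array signal, on a log axis, of the 4 receptor subunits in each of the 18 arrays, by group; points are arrays, bars are group means and the dotted line is the signal minimum of 100. *Ifngr1* lies at 797 to 908 in wild type and 411 to 473 in mutant podocyte arrays, and at 498 to 558 in control and 704 to 870.3 in mutant mesangial arrays.

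Whether the genotype difference itself varied between cell types was tested in a limma fit of all 18 arrays, with calls at an adjusted p under 0.05. The mesangial difference is taken against controls whose column names hold 1 minus sign, so in contrasts with it the cell type and the control genotype cannot be told apart. For endothelial minus mesangial 7 of 41 tested clusters were called, all positive, against 0.710% of all 13523 tested clusters, and 29 had an unadjusted p under 0.05, against 15.9% of all. *Ifit2* differed by 1.88 ± 0.23 on the log2 scale, *Rnf213* by 1.30 ± 0.29, *Trim21* by 1.06 ± 0.24 and the *Parp9* and *Dtx3l* cluster by 1.48 ± 0.31. The other 3 calls, *Mx2* (1.47 ± 0.28), *Cmpk2* (1.05 ± 0.17) and *Dhx58* (1.21 ± 0.25), were of genes that reached the signal minimum in mutant endothelial arrays alone and so entered the fit through the group where they were high. They are given as values and support no difference. Without the signal minimum 3 were called, *Ifit2*, *Mx2* and *Cmpk2*. *Ifit1* and *Ifit3* differed by 2.40 ± 0.58 and 2.23 ± 0.73, with adjusted p of 0.0583 and 0.156. The count was 14 without mutant podocyte array A, against 1.33% of all tested clusters there. It was 4 without mutant endothelial array B or control mesangial array A, 2 without mutant endothelial array A, and 3 without mutant endothelial array C, wild type endothelial arrays B or C, or mutant mesangial arrays A or B. Over 22 alternatives the call was lost in 15 for *Trim21*, 15 for *Rnf213*, 9 for *Parp9* and 0 for *Ifit2*.

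For endothelial minus podocyte 5 were called, all positive, against 1.86% of all tested clusters, and 22 had an unadjusted p under 0.05, against 23.4% of all. They were *Ifit2* (1.93 ± 0.23), *Trim25* (0.91 ± 0.22), *Ifngr1* (1.15 ± 0.14) and, again through the mutant endothelial arrays alone, *Mx2* (1.57 ± 0.28) and *Cmpk2* (0.94 ± 0.17). *Trim25* lost its call in 18 of 22 alternatives. Without mutant podocyte array A the count was 30, where 10.5% of all tested clusters were called positive. Without mutant endothelial array A it was 2, and without wild type endothelial array C it was 3. For podocyte minus mesangial *Ifngr1* alone was called, at -1.54 ± 0.14 (adjusted p = 9.65e-05), against 0.510% of all tested clusters called negative. Without mutant podocyte array A, *Sp100* and *Ifnar2* joined it. The 2 endothelial contrasts share the endothelial arrays, so their calls are not independent of each other.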

How the data were processed

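The authors made the intensity values from 18 arrays with RMA (background correction, quantile normalization and probe summary, per the labels) and deposited them on a linear scale. A second form of 18 columns that the authors deposited holds log2 values minus each cluster's median over the 18 arrays, and it was not used further. The file header and the methods name Gene 1.0 ST arrays, RMA and GeneSpring, whereas Exon ST arrays and GeneBASE are given in the series record. The header names mm9 annotation.

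Intensities were taken to log2, with no pseudocount and no further normalization. Columns were mapped to groups by their names. Clusters at 100 or more in at least 1 array compared were fitted with limma 3.58.1 in R 4.3.3 (lmFit, eBayes). The fits used 6 arrays per genotype comparison, 9 control arrays for cell types and 18 for differences between genotype effects. The study also used a moderated test, with GeneSpring. Benjamini-Hochberg adjustment ran over all tested clusters. The number of arrays limits the precision. The code was tested on simulated data. Members, lists and roles were chosen with earlier results of these data known.

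All 44 genes are accounted for. The 35 other pathway genes are given by counts and a few values, and 1 more is not reported here. Values of every array are given for *Ifit1*, *Ifit3*, *Stat2*, the receptors and, per cell type, the 8 called genes of largest change. The podocyte values of *Ifnar1*, *Ifnar2* and *Ifngr2* are an exception and are only drawn as points in a figure. A few more were added after their values were seen. Promoters came from RefSeq tables (GRCm38.p6, Python 3). Alternatives were the signal minimum, the fit, the scaling, the threshold, the choice of cluster and leaving out arrays.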

Additional observations from a re-analysis of the deposited data

Results flagged for a closer look

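Between cell types, 13 genotype differences of members were called as different in the limma fit of all 18 arrays, 5 of them (*Cmpk2* and *Mx2* in 2 contrasts each, and *Dhx58*) for genes that entered the fit through mutant endothelial arrays alone. In contrasts with mesangial arrays the cell type cannot be told apart from the genotype of the controls, whose column names hold 1 minus sign there. The endothelial difference exceeded the mesangial one by a log2 value of 1.88 for *Ifit2* (adjusted p = 0.000492), 1.05 for *Cmpk2* (0.00503), 1.47 for *Mx2* (0.0162), 1.48 for *Parp9* (0.0261), 1.21 for *Dhx58* (0.0285), 1.30 for *Rnf213* (0.0413) and 1.06 for *Trim21* (0.0495). It exceeded the podocyte one by 1.15 for *Ifngr1* (0.00157), 1.93 for *Ifit2* (0.00157), 0.94 for *Cmpk2* (0.0177), 1.57 for *Mx2* (0.0184) and 0.91 for *Trim25* (0.0425). For *Ifngr1* the podocyte difference minus the mesangial one was -1.54 (9.65e-05), since the gene was lower in every mutant podocyte array and higher in every mutant mesangial array than in their controls. The values of *Cmpk2*, *Mx2* and *Dhx58* support no difference, and *Dhx58* had an adjusted p of 0.0505 without the minimum. Over the alternatives the call was lost by *Trim25* in 18 of 22, by *Trim21* and *Rnf213* in 15 of 22 each, by *Parp9* in 9 of 22, by *Dhx58* in 8 of 21 and by *Ifit2* and *Ifngr1* in 0 of 22. The groups of 3 arrays are too small for a search for outlying arrays.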

How the results depend on the processing

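No paired analysis was possible because the numbers in the sample titles are not shared between groups. The endothelial count of 31 members called higher stood between 27 and 33 under every alternative, 28 to 31 with 1 array left out. Of the 31 members 25 were called under every alternative that tested them, which for *Dhx58* and *Cmpk2* were 12 of the 14. The 31 include the 5 tested through mutant arrays alone, whose calls support nothing. Of these 5, *Dhx58*, *Zbp1*, *Mx2* and *Cmpk2* are also among the 25. *Ifi44* and *Samd9l* were not called in 1 fit of all 18 arrays, and *Ifi35* and *Samd9l* were not called after quantile normalization. The podocyte count of 2 lower became 1 without the signal minimum, 1 after quantile normalization, 1 with the mean over a gene's clusters and 0 with the adjusted p, and the count higher of 0 became 1 after quantile normalization. With 1 array left out, podocyte counts ran from 0 to 5 higher and from 1 to 8 lower, the mesangial count higher from 0 to 1, and the count higher in endothelial than mesangial controls from 0 to 2. The mesangial count was 3 without control array C and mutant array B together, a setting chosen after seeing the data. For differences between genotype effects, endothelial minus mesangial gave 3 without the signal minimum and 4 after quantile normalization, and endothelial minus podocyte gave 9 with array medians subtracted. With 1 array left out these counts ran from 2 to 14 and from 2 to 30, and podocyte minus mesangial from 1 to 3 negative. Of 472 alternative values of named genotype differences 443 kept their call, 29 lost it and 0 reversed, and of 283 differences between effects 216 kept it, 67 lost it and 0 reversed. The cause of these changes was not tested. Another scaling moved the median of all clusters by at most 0.07 on the log2 scale. Genes under a signal of 100 are close to the array's background, and 3 arrays a group leave small differences undetectable.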
